A study of Rattus norvegicus with 6 samples.

Results

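The BCL2 family decides whether mitochondria release the proteins that start apoptosis. Pro-survival members hold the pro-death effectors in check at the outer mitochondrial membrane, the effectors BAX and BAK form the pores once released, and the BH3-only members bind the pro-survival members or the effectors and so tip the balance. In the heart this pathway is best known for the loss of cardiomyocytes after ischemia and reperfusion, and leukocytes use it to set their own life span. Of the 10 family genes considered, listed by symbol, 8 were found in the gene names of the deposited table of 22250 genes. They were the pro-survival genes Bcl2, Bcl2l1 and Bcl2a1, the effectors Bax and Bak1, and the BH3-only genes Pmaip1, Bcl2l11 and Bid. The pro-survival gene Mcl1 and the BH3-only gene Bbc3 were not analysed here. All 8 passed the filter on low counts, as did 13784 genes in all.

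RNA came from the left ventricular myocardium of transplanted donor hearts on postoperative day 1. The 3 young donor hearts (WT3, WT13 and WT15) were from Sprague-Dawley rats of 10 weeks, and the 3 aged donor hearts (OT3, OT4 and OT7) from rats of 1 year of the same strain. All donors were of WT genotype, so the letters WT name the young group only, and all hearts underwent cold storage and heterotopic transplantation, in which the graft beats without its normal load, into young rats. No heart without transplantation was analysed here, so each comparison is between 2 kinds of transplanted heart. Depth was similar, at 21457509 to 24560869 gene reads per heart.

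Young heart WT15 stood apart from the other young hearts. Cardiomyocyte markers summed to 101427 and 111454 CPM (counts scaled to a common library size by TMM, the trimmed mean of M values) in WT3 and WT13 but to 14443 in WT15, and to 629, 8724 and 9366 in OT3, OT4 and OT7. The cardiomyocyte-defining gene Tnnt2 was present in all 6 hearts, at 37.4 CPM in OT3 and at 1573 to 8467 CPM in the others. Aged heart OT3 thus stood apart from OT4 and OT7 as well. WT15 was singled out after these values were seen. The main results are also given without it, which leaves WT3 and WT13 as the young group. In bulk tissue, fewer cells of a type and less RNA per cell cannot be told apart.

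The study called genes at fold limits of 1.5 and 0.67 with P under 0.05. Its main text does not say which test gave that P or whether it was adjusted. Here a gene was called where its fold change was above 1.5 or below 0.67 with an unadjusted p under 0.05 in edgeR's quasi-likelihood test. By this rule 3 of the 8 family genes were higher in aged donor hearts, Pmaip1, Bid and Bax, against 13.2% of all genes tested. A single one, Bcl2l11, was lower, against 19.0% of all genes, so the count of lower genes was no larger than the background. The 3 called higher were all pro-death genes, and none of the 3 pro-survival genes passed the limits. Yet in all 3 pro-survival genes every aged heart was above every young heart, and Bcl2l1 fell just short of the fold limit at a ratio of 1.49. In 6 of the 8 genes the lowest aged heart exceeded the highest young heart, against 21.0% of genes tested, and in Bcl2l11 every aged heart was below, against 20.6%. The median log2 fold change (log2FC, aged over young) was 0.91 over the 8 genes and 0.02 over all genes tested. After Benjamini-Hochberg adjustment in edgeR, 0 of the 13784 genes (0%) had an adjusted p under 0.05, where 4731 had an unadjusted p under 0.05, and DESeq2 and limma-voom gave 3592 and 8416 genes at an adjusted p under 0.05. With 3 hearts against 3, an exact permutation test of a single gene cannot give a p below 0.1.

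Without WT15 the same limits called 6 of the 8 genes higher, now also Bcl2l1, Bcl2a1 and Bak1, against 26.9% of all genes tested in that fit, and 1 lower, against 24.2%. In that fit 6815 of 14109 genes had an adjusted p under 0.05, so a small adjusted p was common there. Scaling by library totals alone, which moved the median log2 fold change of all genes to 0.46, called 5 higher (22.8% of all genes) and 0 lower (10.5% of all genes). Under it 68.6% of all calls were higher in aged donor hearts, in place of 40.9% with TMM. With TMM but without OT3, 2 members were called higher and 1 lower, where 1048 and 2067 of 14033 genes were called.

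**Figure D1:**
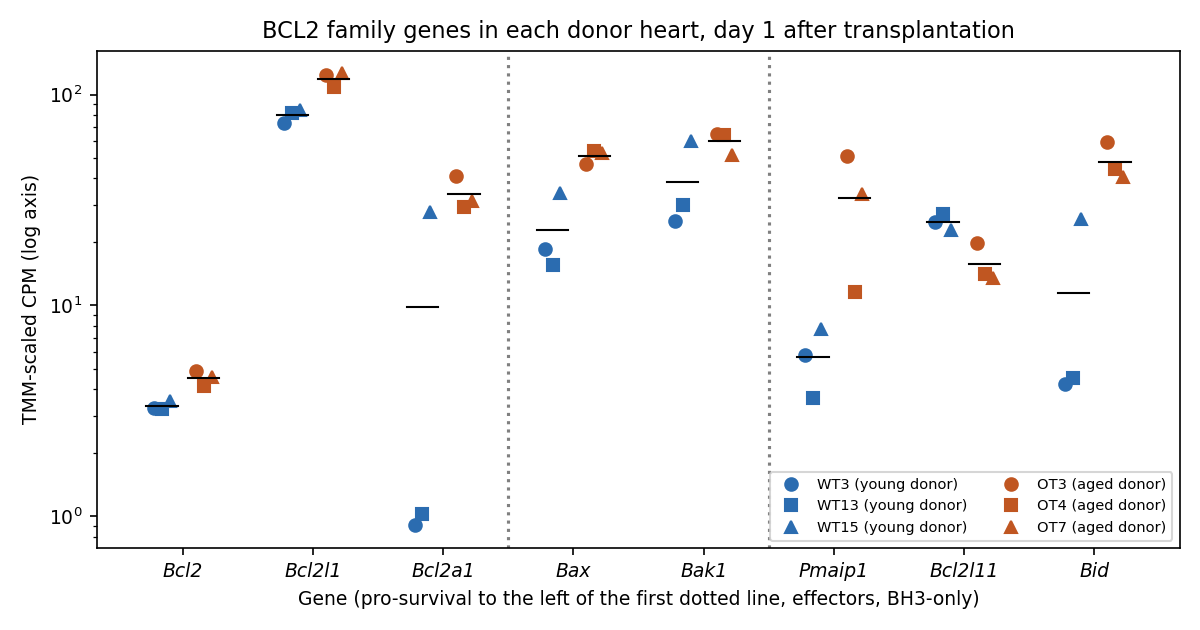
TMM-scaled CPM of the 8 family genes on a log axis, with a point for each heart (blue, young donors; orange, aged donors) and a bar for the mean of each group. WT15 lies near the other young hearts in Bcl2 and Bcl2l1, but at 27.7 CPM of Bcl2a1 and 25.8 CPM of Bid it lies closer to the aged donor hearts than to WT3 and WT13.

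Gene positions are those of the deposited table, whose build is Rnor_6.0. Among the pro-survival genes, Bcl2l1 (ENSRNOG00000007946, chr3:148259596-148313810) encodes BCL-XL, a guard of the outer mitochondrial membrane in most tissues. RefSeq names a pseudogene of it, as it does for Bax, so a part of the reads of both may be shared. It was at 73.6, 81.6 and 84.3 CPM in WT3, WT13 and WT15 and at 124, 108 and 126 CPM in OT3, OT4 and OT7. The groups did not overlap, and WT15 lay with the young hearts. The log2FC was 0.58 (SE 0.17, edgeR quasi-likelihood, Benjamini-Hochberg, adjusted p = 0.0927), a ratio of 1.49 that fell just short of the fold limit. It was 0.66 without WT15, and the limits were passed in 3 of the 6 fits that left out 1 heart.

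Bcl2 (ENSRNOG00000002791, chr13:26605426-26769374), the founding member of the family, had the lowest mean FPKM of the 8 genes in both groups. It was read 54, 51 and 85 times in WT3, WT13 and WT15 and 148, 109 and 120 times in OT3, OT4 and OT7, which is 3.27, 3.24 and 3.51 CPM against 4.86, 4.13 and 4.6 CPM. The groups did not overlap, yet the log2FC of 0.44 (SE, the standard error, 0.24) did not pass the limits, with WT15 or without it.

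Bcl2a1 (ENSRNOG00000047606, chr8:96551245-96559483) encodes A1, a short-lived pro-survival protein known chiefly from leukocytes, where NF-κB induces it. It was read 15 and 16 times in WT3 and WT13, but 671 times in WT15 and 1256, 771 and 813 times in OT3, OT4 and OT7. In CPM these were 0.907, 1.02 and 27.7 in young hearts and 41.3, 29.2 and 31.2 in aged donor hearts. WT15 was 28.8 times the mean of the other young hearts and just below OT4, so the young group was widely spread. With all hearts the log2FC was 1.77 (SE 1.26, edgeR quasi-likelihood, Benjamini-Hochberg, adjusted p = 0.332) and did not pass the limits. Without WT15 it was 5.17 (SE 0.28, edgeR quasi-likelihood, Benjamini-Hochberg, adjusted p = 9.99e-04), the largest change in the family in that fit. There 6815 of 14109 genes had an adjusted p under 0.05.

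The window of 250 bases before the annotated start of Bcl2a1 is shown because it alone among the members with a window holds an AP-1 motif. It lies at chr8:98596556-98596805 on the plus strand of GRCr8, as RefSeq gives it, and not on the build of the deposited table. Capitals mark, from 5′ to 3′, an AP-1 motif (TGANTCA), overlapping PU.1-like motifs (GAGGAAG) and a C/EBP-ATF-like motif (TGATGNAA), searched on both strands after the window had been read.

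Bcl2a1: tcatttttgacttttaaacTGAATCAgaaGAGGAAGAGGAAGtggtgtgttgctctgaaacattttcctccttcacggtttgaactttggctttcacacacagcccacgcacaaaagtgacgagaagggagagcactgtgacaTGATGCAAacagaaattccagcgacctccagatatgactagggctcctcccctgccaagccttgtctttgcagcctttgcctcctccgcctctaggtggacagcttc

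Of 33469 such windows in the RefSeq table, 6.34% held the AP-1 motif, 10.2% the PU.1-like motif and 3.40% the C/EBP-ATF-like motif. The table held a window for 8 of the 10 listed genes, and not for Bax or Bbc3. Bcl2a1 was the only one of these 8 with the AP-1 motif, while the PU.1-like motif was also matched in Bcl2, Bcl2l1, Mcl1 and Bak1, and the C/EBP-ATF-like motif in Bcl2 and Bcl2l1. A match describes letters and is not evidence of binding.

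Of the effectors, Bax was higher in aged donor hearts, while Bak1 did not pass the limits. Bax (ENSRNOG00000020876, chr1:101451802-101457207), which moves from the cytosol to the mitochondrion to form pores, was at 18.5, 15.6 and 34.3 CPM in WT3, WT13 and WT15. In OT3, OT4 and OT7 it was at 46.9, 54.0 and 52.6 CPM. The groups did not overlap. Bax rose by a log2FC of 1.16 (SE 0.32, edgeR quasi-likelihood, Benjamini-Hochberg, adjusted p = 0.0920), a ratio of 2.24. It was past the limits in each of the 6 fits that left out 1 heart, with log2 fold changes from 0.95 to 1.62, the highest without WT15.

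Bak1 (ENSRNOG00000000485, chr20:5609625-5618260) encodes BAK, which sits in the outer mitochondrial membrane already in healthy cells. It was at 25.2, 29.9 and 60.0 CPM in WT3, WT13 and WT15 and at 65.0, 64.6 and 51.5 CPM in OT3, OT4 and OT7. WT15 was above OT7, so the groups overlapped, and the log2FC of 0.65 (SE 0.35) did not pass the limits. Without WT15 it was 1.17 (SE 0.17, edgeR quasi-likelihood, Benjamini-Hochberg, adjusted p = 0.00418), in the fit where 6815 of 14109 genes had an adjusted p under 0.05.

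Of the BH3-only genes, Pmaip1 (ENSRNOG00000018770, chr18:62174670-62181102), which encodes NOXA, an inducible antagonist of MCL1 and A1, had the largest change of the family with all hearts. It was read 96, 57 and 187 times in WT3, WT13 and WT15 and 1563, 306 and 884 times in OT3, OT4 and OT7. These counts are 5.81, 3.62 and 7.72 CPM in young hearts and 51.3, 11.6 and 33.9 CPM in aged donor hearts. Here WT15 lay near the other young hearts, and the aged donor hearts were spread widely, with OT4 the lowest. Pmaip1 rose by a log2FC of 2.49 (SE 0.59, edgeR quasi-likelihood, Benjamini-Hochberg, adjusted p = 0.0916), a ratio of 5.62. All 6 fits that left out 1 heart kept it past the limits, from 1.99 to 2.90, and the value without WT15 was 2.81.

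The window of 250 bases before the annotated start of Pmaip1 is shown because it alone among the 8 members with a window holds a CRE-like motif (TGACGTAA, here read on the opposite strand as TTACGTCA and set in capitals, and likewise searched after the window had been read), the kind of sequence that factors of the ATF and CREB families bind. It lies at chr18:62255720-62255969 on the plus strand of GRCr8, from RefSeq.

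Pmaip1: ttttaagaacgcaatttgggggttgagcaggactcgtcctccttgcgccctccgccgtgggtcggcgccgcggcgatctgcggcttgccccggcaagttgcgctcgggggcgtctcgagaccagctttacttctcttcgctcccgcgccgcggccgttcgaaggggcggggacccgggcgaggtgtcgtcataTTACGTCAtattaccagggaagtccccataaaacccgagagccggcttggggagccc

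The motif starts 57 bases before the annotated start, and 0.750% of the 33469 windows held it. A GC box (GGGCGG) was searched as well and is left in small letters. It was held by 30.5% of windows and matched in Pmaip1, Mcl1, Bak1, Bcl2l11 and Bid. Atf4, which encodes a stress-induced factor of the ATF and CREB group, was among the regulators that rose in aged donor hearts, as given with the pathway genes. Whether ATF4 acts on this window was not tested.

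Bid (ENSRNOG00000012439, chr4:153442218-153465203) links the death receptors to mitochondria, since caspase-8 cuts its protein into the active form. It was read 70 and 71 times in WT3 and WT13, 625 times in WT15, and 1820, 1162 and 1058 times in OT3, OT4 and OT7. In CPM it was at 4.23, 4.51 and 25.8 in young hearts and at 59.8, 44.1 and 40.5 in aged donor hearts. No young heart reached an aged one, but WT15 was 5.90 times the mean of the other young hearts. Bid rose by a log2FC of 2.05 (SE 0.75, edgeR quasi-likelihood, Benjamini-Hochberg, adjusted p = 0.118). It passed the limits in 1 of the 6 fits that left out 1 heart, that without WT15, with a log2FC of 3.50 (SE 0.24). In the other fits the value lay between 1.66 and 2.17.

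Bcl2l11 (ENSRNOG00000016551, chr3:120726906-120764192) encodes BIM, a BH3-only protein that FOXO factors induce when growth factors are withdrawn. It was the only member that fell. It was at 24.9, 27.0 and 22.9 CPM in WT3, WT13 and WT15 and at 19.7, 14.1 and 13.5 CPM in OT3, OT4 and OT7. WT15 lay with the young hearts, and the groups did not overlap. The log2FC was -0.66 (SE 0.22, edgeR quasi-likelihood, Benjamini-Hochberg, adjusted p = 0.104), and -0.68 without WT15. This call rests on the scaling of libraries. With library totals alone the log2FC was -0.19 and did not pass the limits, and in FPKM, which divides by library totals, the groups overlapped, at 3.73, 3.84 and 4.84 in young hearts and 4.76, 3.10 and 3.03 in aged donor hearts. It passed the limits in 2 of the 6 fits that left out 1 heart.

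**Figure D2:**
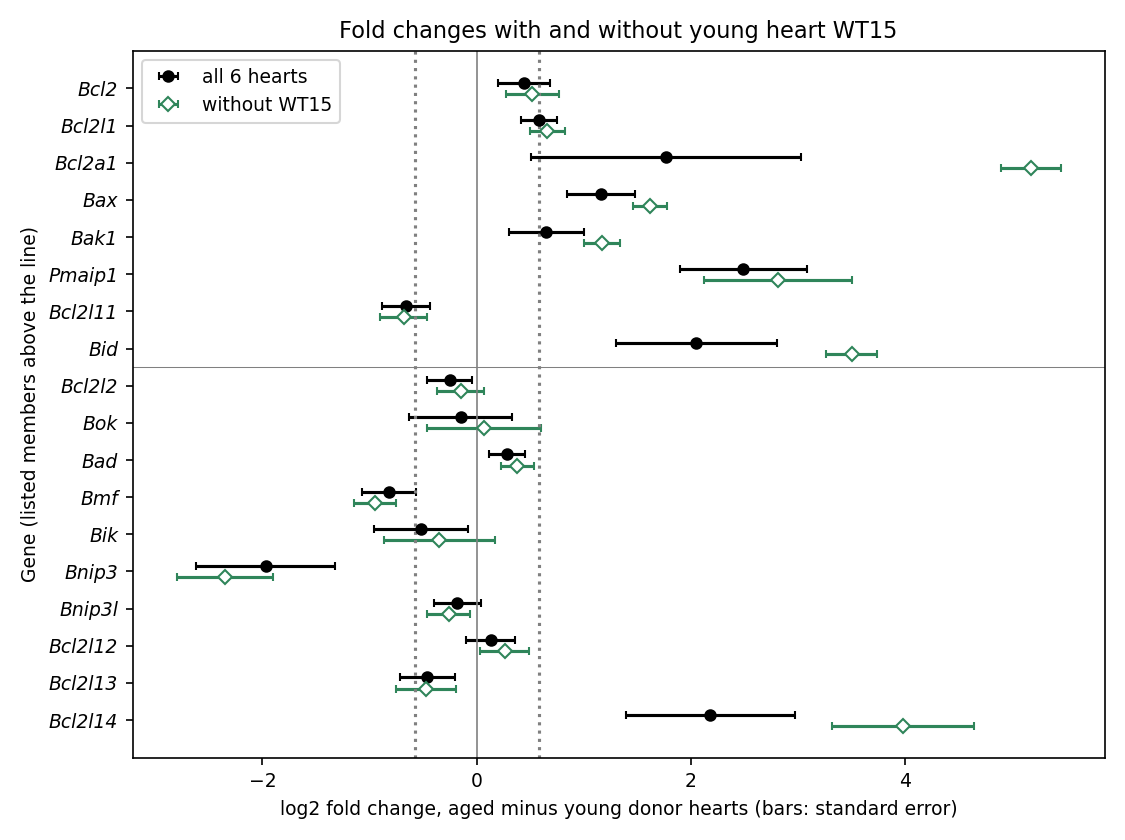
Log2 fold changes for aged against young donor hearts, with standard errors, for the 8 listed genes (above the line) and 10 further tested members of the family, with all 6 hearts (filled circles) and without WT15 (open diamonds), with dotted lines at the fold limits. Bcl2a1 moved from 1.77 to 5.17 and Bid from 2.05 to 3.50 when WT15 was left out, whereas Bcl2, Bcl2l1 and Bcl2l11 moved by less than their standard errors.

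Levels of different genes were compared in FPKM, which is per length of the gene. In young hearts WT3 and WT13, BCL-XL was the most abundant transcript of the family, with Bcl2l1 at 13.8 and 14.5 FPKM, followed by Bax at 11.1 and 8.97 FPKM and Bak1 at 9.59 and 10.8 FPKM. Bcl2a1 was the lowest, at 0.838 and 0.894 FPKM, with Bcl2 at 1.22 and 1.16 FPKM and Pmaip1 at 1.62 and 0.961 FPKM next. In aged donor hearts Bcl2a1 was highest, at 48.1 ± 11.6 FPKM (SD, n = 3), with Bax at 47.0 ± 1.27, Bak1 at 35.1 ± 5.21, Bcl2l1 at 34.1 ± 4.05 and Bid at 28.6 ± 7.48 FPKM. Among these 5 genes, all described and none tested against each other, neighbours in the order differed by less than the larger of their SDs, except Bax and Bak1. Pmaip1 followed at 14.0 ± 9.14 FPKM, and Bcl2l11 at 3.63 ± 0.978 and Bcl2 at 2.60 ± 0.329 FPKM came last. In WT15, Bcl2a1 was likewise the highest, at 36.1 FPKM.

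Pro-survival and pro-death members were then summed in each heart. On the FPKM scale the 3 pro-survival genes summed to 15.8, 16.6 and 60.2 in WT3, WT13 and WT15 and to 102, 71.4 and 81.3 in OT3, OT4 and OT7. The 5 pro-death genes summed to 27.7, 26.2 and 83.3 in young hearts and to 150, 117 and 118 in aged donor hearts. Neither sum overlapped between the groups, the aged hearts being higher, by ratios of the means of 2.75 and 2.80. Without WT15 the young means were 16.2 for the pro-survival and 27.0 for the pro-death sum, where the aged means were 84.8 and 128, so both ratios were larger. FPKM divides by library totals, and these held unlike shares of reads from the mitochondrial genome. The shares were 21.68%, 21.69% and 11.88% in WT3, WT13 and WT15 and 6.565%, 7.994% and 10.31% in OT3, OT4 and OT7. With TMM-scaled CPM per kilobase of gene length the ratios of the means over all hearts were 2.18 and 2.20. No test was made of these sums, since the members were chosen with earlier results of these data known.

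The ratio of the sums, which does not depend on how libraries are scaled against each other, was 1.75, 1.58 and 1.38 in WT3, WT13 and WT15 and 1.48, 1.63 and 1.45 in OT3, OT4 and OT7. The groups overlapped, at 1.57 ± 0.184 in young hearts and 1.52 ± 0.0978 in aged donor hearts (SD, n = 3 each). This near equality rested on Bcl2a1. When it was left out of the pro-survival sum, the ratio was 1.85, 1.67 and 3.46 in young hearts and 3.74, 3.67 and 3.10 in aged donor hearts, so that WT15 lay among the aged hearts. The sums lack Mcl1 and Bbc3, and the ratio is therefore that of the measured members only.

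Pairs of genes gave the same picture of WT15. The ratio of Bax to Bcl2 in FPKM, a common index of the balance, was 9.10, 7.77 and 15.7 in WT3, WT13 and WT15 and 15.6, 21.0 and 18.4 in OT3, OT4 and OT7, with WT15 just above OT3. The ratio of Bax to Bcl2l1 was 0.809, 0.618 and 1.31 in young hearts and 1.22, 1.62 and 1.35 in aged donor hearts. For Bak1 to Bcl2l1 the highest ratio of all, 1.45, was that of WT15. As shares of the summed FPKM of the 8 members, Bcl2a1 took 1.93% and 2.09% in WT3 and WT13 and 21.1% to 25.2% in the other 4 hearts. The share of Bcl2l1 was 31.6% and 33.9% in WT3 and WT13 and 14.8% to 17.8% in the other 4. Shares in which the groups did not overlap were those of Bid, from 3.76% to 9.81% in young hearts and from 11.8% to 14.8% in aged donor hearts, of Bcl2l11, from 3.37% to 8.97% and from 1.52% to 1.89%, and of Bak1, from 22.0% to 25.2% and from 14.8% to 19.2%.

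**Figure D3:**
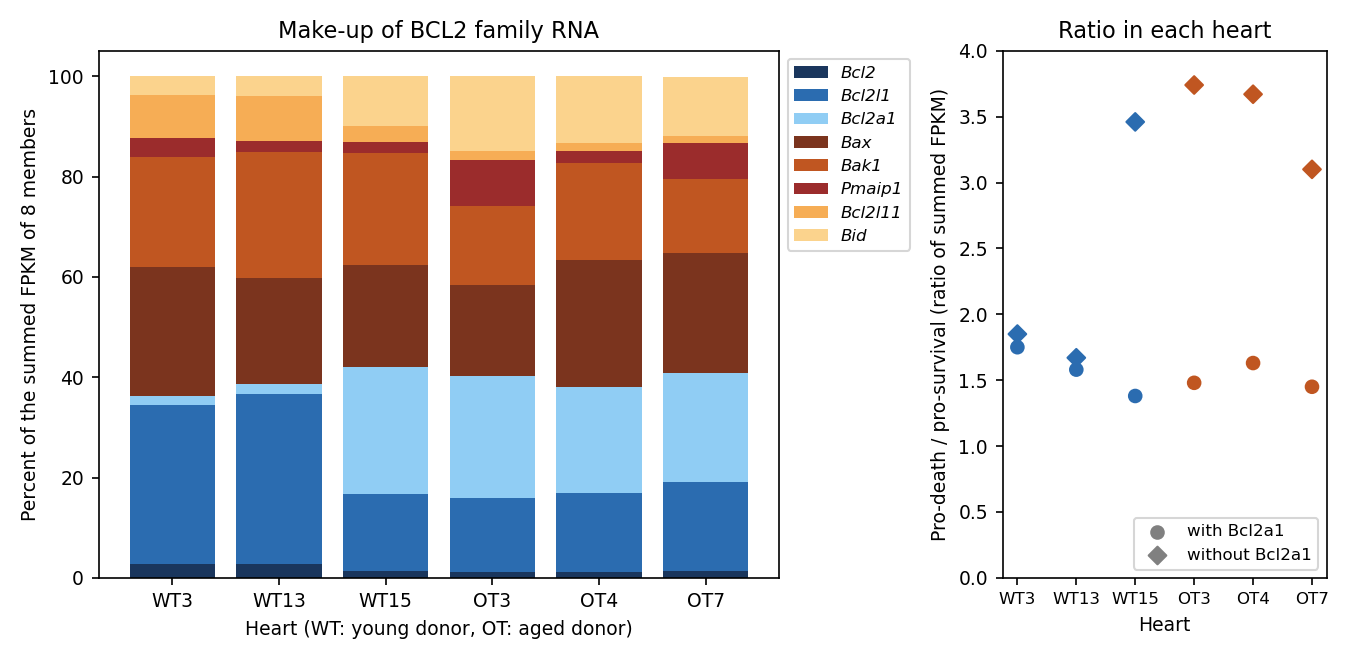
Left, the percent of the summed FPKM of the 8 members taken by each gene in each heart (blue shades, pro-survival; brown, red and orange shades, pro-death). Right, the ratio of summed pro-death to summed pro-survival FPKM, which lies between 1.38 and 1.75 in all hearts (circles), and the same ratio without Bcl2a1 (diamonds), at 1.85 and 1.67 in WT3 and WT13 and from 3.10 to 3.74 in the other 4.

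Markers of leukocytes moved with several of these genes. Neutrophil markers summed to 17.2, 17.8 and 152 CPM in WT3, WT13 and WT15 and to 1509, 393 and 860 CPM in OT3, OT4 and OT7, and 8 of the 9 tested were called higher. Of all genes tested, 13.2% were called higher and 19.0% lower, which is the background for each count of markers called here. The neutrophil-defining genes Csf3r and Cxcr2 were low in WT3 and WT13, at 1.39 and 2.42 CPM and at 0.484 and 0.445 CPM, and were at 467 and 110 CPM in OT3. Macrophage and monocyte markers summed to 326, 310 and 2392 CPM in young hearts and to 7348, 4293 and 3789 CPM in aged donor hearts, with 3 of 9 called higher. The macrophage-defining genes Cd68 and Csf1r were not among those called. In both, WT15 lay above OT7, at 149 against 129 CPM for Cd68 and at 275 against 249 CPM for Csf1r. Bcl2a1 and Bid followed the order in which WT15 lay between WT3 and WT13 on the one side and the aged hearts on the other. The macrophage, neutrophil and T cell sums did so too, but Cd68 and Csf1r did not. T cell markers summed to 25.9 to 77.2 CPM in young hearts and 91.7 to 139 CPM in aged donor hearts with 1 of 5 called. The rise in this sum was largely that of Cd8a, at 2.42, 0.89 and 55.8 CPM in WT3, WT13 and WT15 and 99.0, 88.3 and 63.8 CPM in OT3, OT4 and OT7. The defining gene Cd3e stayed at 0.289 to 1.71 CPM in all hearts, lowest in WT15, and Cd3d was at 0 in one of them. B cell markers summed to at most 6.90 CPM in any heart, with 0 of 3 called. Cardiomyocyte markers went the other way, with 5 of 11 called lower. Endothelial (1 of 7 lower), fibroblast (1 of 5 lower), smooth muscle (0 of 4) and red blood cell markers (0 of 2) gave few calls, near the background or under it. The part of these cell types in the changes of the family genes was not tested.

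**Figure D4:**
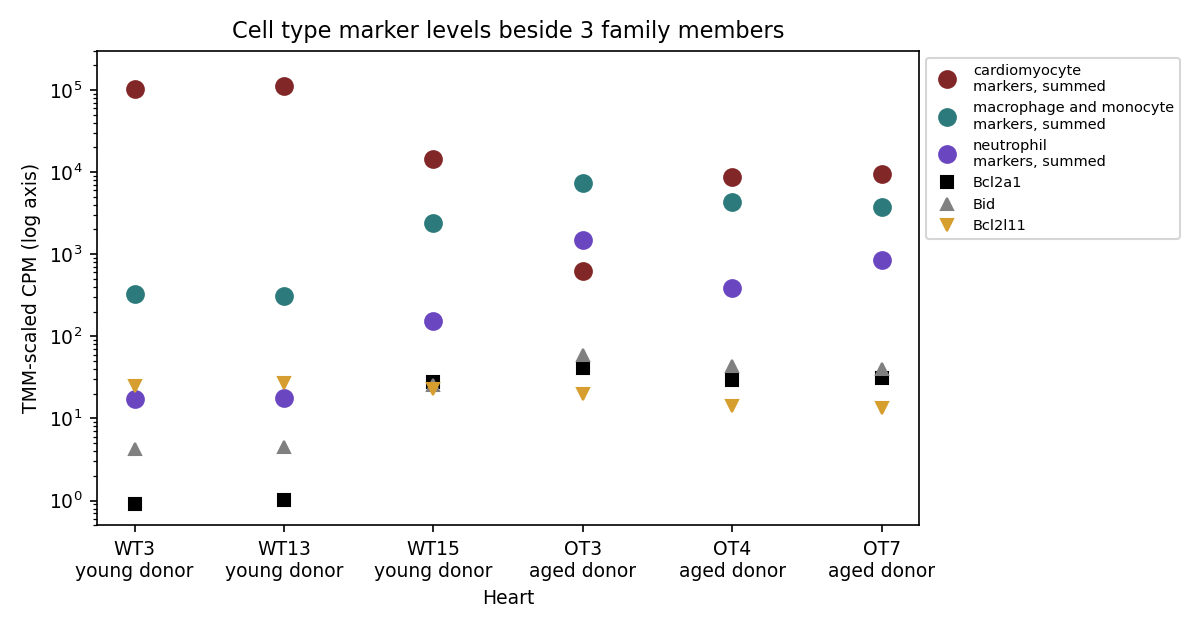
Summed TMM-scaled CPM of cardiomyocyte, macrophage and monocyte, and neutrophil markers in each heart, beside the CPM of Bcl2a1, Bid and Bcl2l11, on a log axis. Bcl2a1 and the macrophage sum are low in WT3 and WT13 (0.907 and 1.02 CPM, and 326 and 310 CPM) and higher in the other 4 hearts, while Bcl2l11 stays between 13.5 and 27.0 CPM in all 6.

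The rest of the family was taken from a list of 14 further genes, of which 12 were in the table and 10 were tested. Here 1 of 10 was called higher and 2 lower, against 13.2% and 19.0% of all genes, so both counts were near the background. The median log2FC was -0.21. The higher one was Bcl2l14, a little-studied relative, with 1, 1 and 12 reads in WT3, WT13 and WT15 and 41, 26 and 20 reads in OT3, OT4 and OT7. Its log2FC of 2.18 (SE 0.79) rests on these few reads, and it was called in 1 of the 6 fits that left out 1 heart, that without WT15. The lower ones were Bmf and Bnip3. Bmf, a BH3-only gene whose protein is tied to the cytoskeleton, was at 11.5, 13 and 8.22 CPM in young hearts and 6.17, 6.71 and 5.59 CPM in aged donor hearts, a log2FC of -0.82 (SE 0.25), which passed the limits in 3 of the 6 fits that left out 1 heart. Together with Bcl2l11 it was thus a second BH3-only gene that fell, and its log2FC was -0.33 and not past the limits with library totals alone.

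Bnip3, which encodes a mitophagy receptor related to the BH3-only proteins and induced by hypoxia, was at 158, 204 and 44.4 CPM in WT3, WT13 and WT15 and at 19.1, 29.0 and 55.4 CPM in OT3, OT4 and OT7. OT7 was above WT15, so the groups overlapped despite a log2FC of -1.97 (SE 0.65). It passed the limits in 3 of the 6 fits that left out 1 heart and not without WT13, OT3 or OT4, and the value without WT15 was -2.35. Its relative Bnip3l had a log2FC of -0.18 (SE 0.22). The other 6 tested genes did not pass the limits. They were Bcl2l2, which encodes the pro-survival protein BCL-W (-0.25), the effector relative Bok (-0.15), the BH3-only genes Bad (0.28) and Bik (-0.52), and Bcl2l12 (0.13) and Bcl2l13 (-0.46), each given as a log2 fold change. With library totals alone the values of Bcl2l2, Bok and Bnip3l were positive, at 0.18, 0.24 and 0.31. Bcl2l12 overlaps Irf3 on the opposite strand by 865 bases, so its value is uncertain. Bcl2l10, with 0 to 3 reads in a heart, and Bcl2l15, with 4 to 16, were not tested.

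Genes that act around the family came from a list of 50, of which 48 were in the table and 46 were tested. In all 5 were called higher and 8 lower, against 13.2% and 19.0% of all genes, so neither share was far from the background. The median log2FC was 0.26. Among the 10 tested genes of the apoptosome (Apaf1 and Casp9), of the proteins that mitochondria release and of their outer membrane channels, 6 fell and 0 rose. Cycs, which encodes the cytochrome c that starts the caspase cascade and also carries electrons in respiration, fell from 1037, 1061 and 189 CPM in WT3, WT13 and WT15 to 113, 135 and 178 CPM in OT3, OT4 and OT7, a log2FC of -2.42 (SE 0.66). The others were Endog, which encodes a mitochondrial nuclease (log2 fold change -2.49), Aifm1, the gene of apoptosis-inducing factor (-1.79), and the channel genes Vdac1 (-1.80), Vdac3 (-1.60) and Vdac2. Vdac2 was at 555, 566 and 257 CPM in young hearts and at 203, 262 and 223 CPM in aged donor hearts, with WT15 below OT4, and was called in 1 of the 6 fits that left out 1 heart, that without WT15. WT15 was far below WT3 and WT13 in all 6, as it was in the cardiomyocyte markers, whose part was not tested.

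Caspases did not pass the limits in any of 4 tested genes. Among the caspase inhibitors, Birc3, an NF-κB target that encodes cIAP2, rose from 7.20, 4.77 and 10.9 CPM to 32.4, 21.8 and 36.9 CPM, while Xiap, Birc2 and Birc5 did not pass the limits. Of 7 tested genes of the death receptor arm, which feeds into Bid, Ripk1 alone was called higher, against 13.2% of all genes. Its log2FC was 0.91 (SE 0.25), and all 7 had positive values with all hearts, from 0.47 to 0.96. Without WT15, 6 of these 7 were called higher, against 26.9% of all genes tested in that fit.

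Among the 21 tested regulators 3 were called higher, of which Atf4 and Trib3 are described, and 2 lower, against 13.2% and 19.0% of all genes. Atf4 was at 165, 153 and 205 CPM in WT3, WT13 and WT15 and at 293, 326 and 427 CPM in OT3, OT4 and OT7, a log2FC of 1.00 (SE 0.25). Trib3, a target of ATF4, was at 2.36, 2.03 and 1.53 CPM in young hearts and 11.3, 7.85 and 23.3 CPM in aged donor hearts. In both genes WT15 lay with the young hearts or near them, as in Pmaip1. Ddit3, a further regulator on the list, did not rise with them, and its log2FC was -0.08 (SE 0.39). It was at 35.0, 39.9 and 14.3 CPM in young hearts and at 24.7, 25.3 and 34.2 CPM in aged donor hearts. The regulators called lower were Foxo1 (log2 fold change -0.84), a regulator of Bcl2l11, and Fbxw7 (-1.26), whose protein marks MCL1 for breakdown. For both, WT15 lay among the aged hearts. Both were called in 1 of the 6 fits that left out 1 heart, that without WT15.

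**Figure D5:**
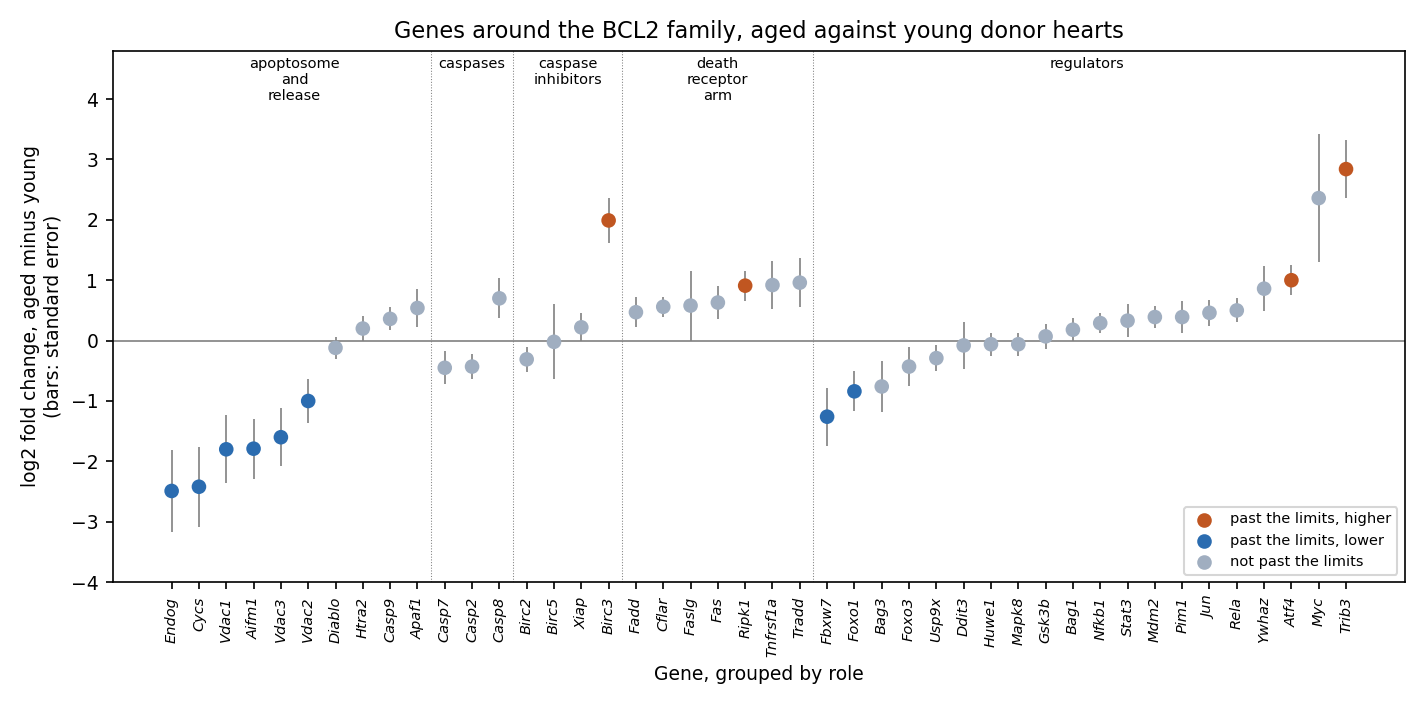
The log2 fold change of aged against young donor hearts, with its standard error, for 44 of the 46 tested genes around the family, grouped by role and coloured by whether they passed the limits. The 6 genes called lower in the group of apoptosome and release are lowest at Endog (-2.49) and Cycs (-2.42), and Trib3 (2.84) and Birc3 (1.99) are the highest of those called.

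For each called member, the 3 genes most alike were taken as those with the highest Pearson correlation of log2 CPM over the 6 hearts, among genes with a mean of at least 10 CPM. They were Paf1, Ric8a and Gatad2a for Bax (r from 0.9979 to 0.9990), Ppp1r15b, Traf6 and Zbtb21 for Pmaip1 (0.9935 to 0.9951), Sdc1, Sgpl1 and Hnrnpf for Bid (0.9996 to 0.9998), and Lpar1, Slfn5 and Lama4 for Bcl2l11 (0.9898 to 0.9923). With 6 hearts that share 2 groups and the position of WT15, such values are common. An r above 0.95 was reached by 1526 of 9559 genes for Bid and by 1078 for Bax, but by 184 for Pmaip1 and 48 for Bcl2l11. Sdc1 was at 5.51, 6.10 and 84.7 CPM in WT3, WT13 and WT15, and at 324, 211 and 169 CPM in OT3, OT4 and OT7, with WT15 between the other young hearts and the aged hearts as for Bid. Ppp1r15b was at 50.2, 47.0 and 57.7 CPM in young hearts and at 97.9, 65.7 and 91.3 CPM in aged donor hearts, with WT15 near the other young hearts and OT4 the lowest aged heart, as for Pmaip1.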

How the data were processed

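RNA-Seq was performed on 6 donor hearts, 3 per group. The authors deposited raw read counts per gene, without normalization, and FPKM values, each the count divided by gene length and library total (all but 1 of 133500 values were within 1% of this, and none of those off belonged to a family gene). The submitters' processing notes name HISAT2 2.0.5, featureCounts 1.5.0-p3, StringTie 1.3.3b, GATK 3.7, DESeq2 1.16.1 and the build Rnor_6.0, without roles. The use of strand was not given in the sources used here. RefSeq names pseudogenes of Bax and Bcl2l1, with which reads could be shared.

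The deposited counts were fitted with edgeR 4.0.16 under R 4.3.3 (filterByExpr, TMM, quasi-likelihood test, no covariates) over all genes, with Benjamini-Hochberg adjustment. SE was derived from the fold change and its F statistic. Correlations used log2 CPM with a prior count of 2. The detection floor of 3 reads was 0.0985 to 0.191 CPM and covers counting error only. Alternatives used DESeq2 1.42.0, limma 3.58.1 (voom with quality weights), other scalings, filters and limits, and each heart left out in turn. Exact permutation tests and summaries used Python 3.11.15. The fit was also run on counts simulated at a fixed dispersion with no heart set apart. That run does not show how the fit handles the spread within the groups seen here.

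The members and gene lists were chosen with earlier results of these data known. All listed and wider family genes, called genes of the pathway list, defining markers and the 3 genes most alike per called member were named by rule. Pathway genes named though not called were chosen after their values were seen. Some genes of the pathway list are not reported here by name. Each sample is labelled as a separate heart, with nothing on litter or day, and p-values measure the spread between these samples.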

Additional observations from a re-analysis of the deposited data

How the results depend on the processing

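Across 104 alternative values of the 8 members, 0 changed sign, 80 kept their side of the limits, 11 no longer passed (Bcl2l11 and Bid) and 13 newly passed (Bcl2, Bcl2l1, Bcl2a1 and Bak1). Bax and Pmaip1 passed in all 13 alternatives. Members called higher (3) were 5 with library totals, with or without the mitochondrial genome, 6 with limma-voom and 0 with adjusted p, and members called lower (1) were 0 with either kind of library totals and with adjusted p. Further family members called higher (1) were 2 with library totals, 0 with at least 10 reads in every heart and 0 with adjusted p, and those called lower (2) were 1 with either kind of library totals and 0 with adjusted p. Pathway genes called higher (5) were 15 and 10 with library totals with and without the mitochondrial genome, 9 with DESeq2, 16 with limma-voom and 0 with adjusted p, and those called lower (8) were 5, 5 and 0 with both library totals and adjusted p. Of all genes, 1815 higher and 2621 lower became 3147 and 1441 with library totals, 0 and 0 with adjusted p, and 3689 higher with limma-voom. The limma-voom fit weighted hearts by quality. Its log2 fold changes of Bcl2a1 (4.92), Bid (3.29) and Bak1 (1.06) lay near those without WT15 (5.17, 3.50 and 1.17). For Pmaip1 its value of 2.44 lay nearer the main 2.49 than the 2.81 without WT15. It is thus not independent of the fit without WT15.

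Leaving out 1 heart each gave 2 to 6 members higher and 0 to 1 lower, 0 to 1 further family members higher and 0 to 2 lower, 4 to 17 pathway genes higher and 5 to 10 lower, and 817 to 3802 of all genes higher and 1615 to 3412 lower. In each of these ranges the highest count was that without WT15. The log2 ratio of pro-death to pro-survival sums, aged minus young, was -0.04, but 0.29 with summed counts, -0.24 with mean log2(FPKM + 0.1), 0.66 without Bcl2a1, which was added after seeing the data, and from -0.13 to 0.04 with 1 heart left out, above 0 in 1 case, that without WT3. The causes were not tested. No paired analysis was made, since the labels give no pairing of young with aged donor hearts. Depth was similar in all hearts and limits mainly Bcl2a1 in WT3 and WT13, Bcl2l14, Bcl2l10 and Bcl2l15.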
